A study of Mus musculus with 9 samples.

Results

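Retinoic acid is a small signalling molecule that cells make from vitamin A (retinol). RDH and DHRS enzymes interconvert retinol and retinal, ALDH1A enzymes oxidise retinal to retinoic acid, and CYP26 enzymes break it down. CRABP proteins bind retinoic acid in the cytoplasm, and the nuclear receptors RARA, RARB and RARG, paired with RXR partners, bind it on DNA. In the gastrulating mouse embryo the pathway takes part in anteroposterior patterning, with breakdown enzymes keeping some regions low in retinoic acid. The genes described here are 9 of the 23453 symbols in the deposited count table: the synthesis enzymes Aldh1a2 and Aldh1a3, the retinal reductase Dhrs3, the breakdown enzyme Cyp26a1, the binding proteins Crabp1 and Crabp2, and the receptors Rara, Rarb and Rarg. They were chosen by symbol, and all 9 were found.

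Their RNA was measured by bulk RNA-seq in 9 libraries of cultured mouse cells, 3 for each of 3 states. EpiLCs (epiblast-like cells) were wild-type naive ESCs cultured for 48 h in N2B27 with Activin, FGF2 and 1% KSR, a serum replacement. The aEpiLCs, made to resemble anterior epiblast, were EpiLCs kept for a further 24 h in N2B27, with 1% KSR in the methods, and without Activin. The pEpiLCs, made to resemble posterior epiblast, were EpiLCs kept for the same 24 h in N2B27 with 1% KSR. Their medium also held Activin at 20 ng/ml and CHIR99021 (a WNT pathway agonist) at 3 µM. FGF2 is not listed for either later medium. No group had retinoic acid or an inhibitor of the pathway as a listed agent, retinoic acid itself was not measured, and the vitamin A content of the media is not given in the sources used here. The labels give the tissue as embryo, although the cells came from culture, and they do not say whether replicates were separate cultures, so p-values measure only the spread between these libraries.

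Library totals ranged from 20560564 to 23417917 counts, and 3 counts, taken as the detection limit, were worth 0.130 to 0.143 CPM (counts scaled to the library's total and composition). Posterior markers were present in the pEpiLC libraries, but replicate 1 stood apart from replicates 2 and 3. T had 1087 CPM there against 204 and 219 CPM, Mixl1 had 644 CPM against 37.3 and 35.9 CPM, and Gata6 had 46.5 CPM against 0.0869 and 0.138 CPM. Eomes (381 CPM against 239 and 216 CPM) and Foxa2 (62.8 CPM against 42.6 and 34.0 CPM) were higher by less. Nanog went the other way, with 105 CPM in replicate 1 against 247 and 255 CPM. The 7 measured markers of extraembryonic endoderm summed to 66.2 CPM in this library, against 7.95 to 17.4 CPM in the other 8. Of these 7, Gata4 (12.3 CPM) and Gata6 made up most of the sum, while Sox7 and Apoa1 were at 0 counts in it. Values without pEpiLC replicate 1 are therefore given beside the results that rest on it, and the part of this library's other features in them was not tested. In bulk RNA, fewer cells expressing a gene and less RNA per cell cannot be told apart.

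Retinoic acid receptors bind a direct repeat of a 6-base motif, and a spacing of 5 bases (DR5) is the arrangement known best for them. The 250 bases before each RefSeq start (GRCm38.p6) were searched on both strands for the motif AGGTCA and its variants AGTTCA and also GGGTCA as well as GGTTCA, followed after 5 bases by any of these 4 in the same orientation. Such a DR5 lay in 29 of 32851 windows (0.0883%), whereas a single copy of any of these motifs lay in 38.6% of windows. Windows of 7 of the 9 genes, with 13 starts, were searched. Those of Aldh1a3 and Crabp2 were not analysed here. The windows of Cyp26a1 and Rarb held a DR5. Both sequences are shown 5′ to 3′ on the gene's strand, with the DR5 in capitals, since these were the 2 genes of the set that carried it. The first is Cyp26a1, chr19:37697558-37697797 on the plus strand, cut at the start of the GENCODE gene, where the repeat runs on the opposite strand (AGTTCACCCAAAGTTCA). The second is Rarb, chr14:16575506-16575535 on the minus strand, limited to 30 bases because GENCODE places this stretch in the 5′ UTR of longer Rarb transcripts.
Cyp26a1: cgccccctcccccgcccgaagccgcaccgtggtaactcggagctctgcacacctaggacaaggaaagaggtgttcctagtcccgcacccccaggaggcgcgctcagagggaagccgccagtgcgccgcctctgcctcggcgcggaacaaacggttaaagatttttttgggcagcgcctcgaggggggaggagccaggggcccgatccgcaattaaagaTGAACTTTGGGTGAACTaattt
Rarb: gggaagGGTTCACCGAAAGTTCActcgcat
A DR5 is a description of the letters in these windows, and binding was not measured.

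Against this background the 9 genes fell into distinct patterns. Cyp26a1 had 0 counts in EpiLCs, 2 to 14 counts in aEpiLCs and 45 or more in every pEpiLC library. Crabp2 was highest in aEpiLCs and lowest in pEpiLCs. Rarg was highest in EpiLCs and lowest in pEpiLCs, and Rara was higher in EpiLCs than in both later states. Aldh1a2, Aldh1a3 and Rarb were low in all states, with at most 1.62, 1.13 and 0.450 CPM in any library.

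**Figure D1:**
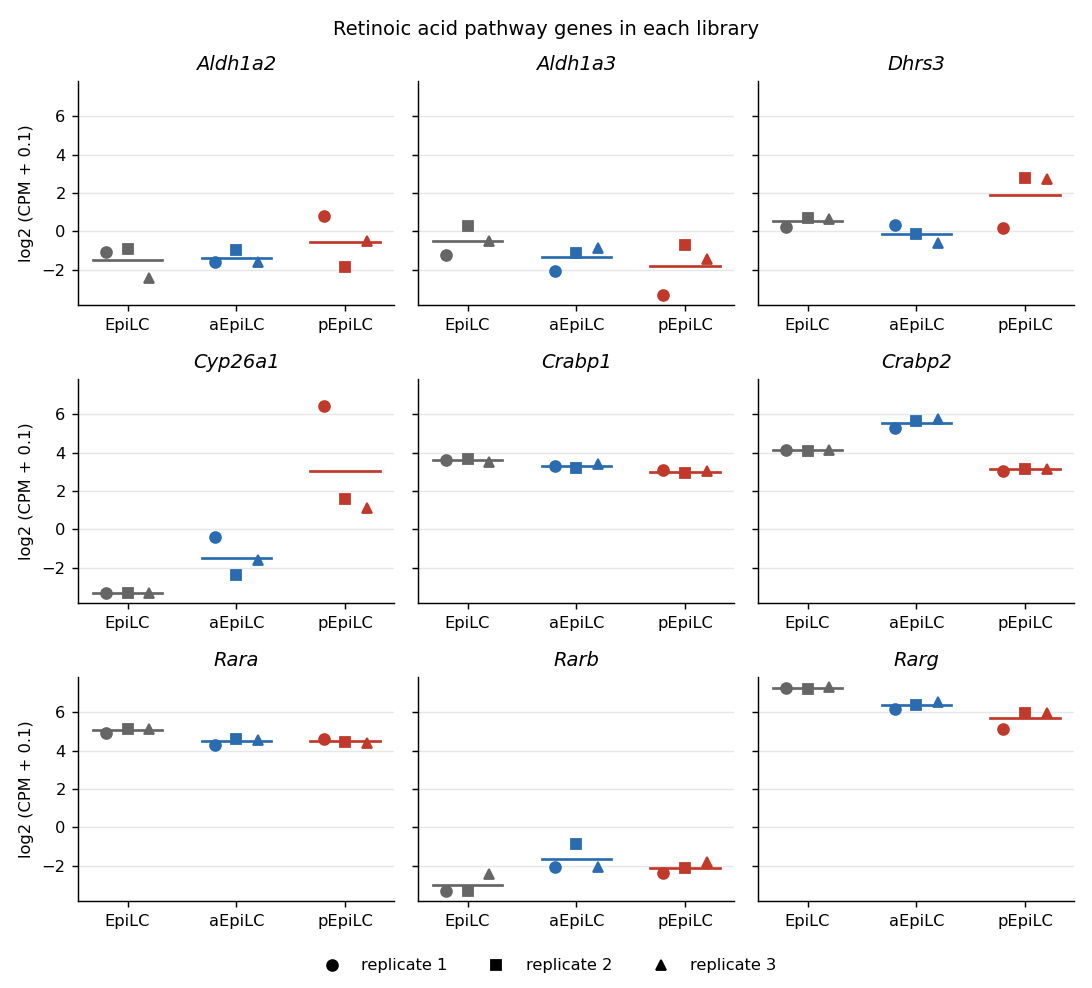
Level of each gene in each library, as log2 (CPM + 0.1) on the vertical axis, by state on the horizontal axis. Points are libraries, with the shape giving the replicate number, and lines are means of the 3 values on this scale. Cyp26a1 rises from 0 counts in EpiLCs to 85.2 CPM in pEpiLC replicate 1, and Crabp2 has its 3 highest values in aEpiLCs.

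Each pair of states was tested with edgeR (quasi-likelihood). Calls needed an adjusted p (Benjamini-Hochberg) under 0.05 together with a log2 fold change of 1 or more in size, and SE below is the standard error of that fold change. In the comparison of pEpiLCs with aEpiLCs, 6 of the 9 genes passed the filter on low counts. Called higher in pEpiLCs were 2 (Cyp26a1 and Dhrs3), and called lower was 1 (Crabp2), where 2.55% of the 15198 genes tested were called higher and 4.74% lower. From EpiLCs to aEpiLCs, 6 were tested, 1 was called higher (Crabp2) and 0 lower, against 7.25% and 5.24% of 15301 genes. Of the genes with lower levels in aEpiLCs, 3 had an unadjusted p below 0.05 (Rara, Rarg and Crabp1), all within the fold limit, and Crabp1 also missed on adjusted p. DESeq2 also called 0 lower. From EpiLCs to pEpiLCs, 7 were tested, 2 were called higher (Cyp26a1 and Dhrs3) and 1 lower (Rarg), against 7.71% and 8.13% of 15288 genes. Cyp26a1 passed the filter in both pEpiLC comparisons only through the pEpiLC libraries, where it was high, so its place among the called genes is a description.

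Counted by adjusted p alone, 3 of 6 passed between pEpiLCs and aEpiLCs, 3 of 6 between aEpiLCs and EpiLCs and 6 of 7 between pEpiLCs and EpiLCs, where 15.6%, 46.6% and 44.2% of all genes tested did. The median log2 fold change over the genes tested was -0.14 between pEpiLCs and aEpiLCs, beside a median of 0.012 over all genes. Its sign turned without pEpiLC replicate 2 (0.027), aEpiLC replicate 2 (0.059) or aEpiLC replicate 3 (0.040). It was -0.63 between aEpiLCs and EpiLCs (all genes, 0.0023) and -0.56 between pEpiLCs and EpiLCs (all genes, 0.017), the last unchanged with Cyp26a1 set at its lower bound. Each state's libraries serve in 2 of the 3 comparisons, so their results are not independent.

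**Figure D2:**
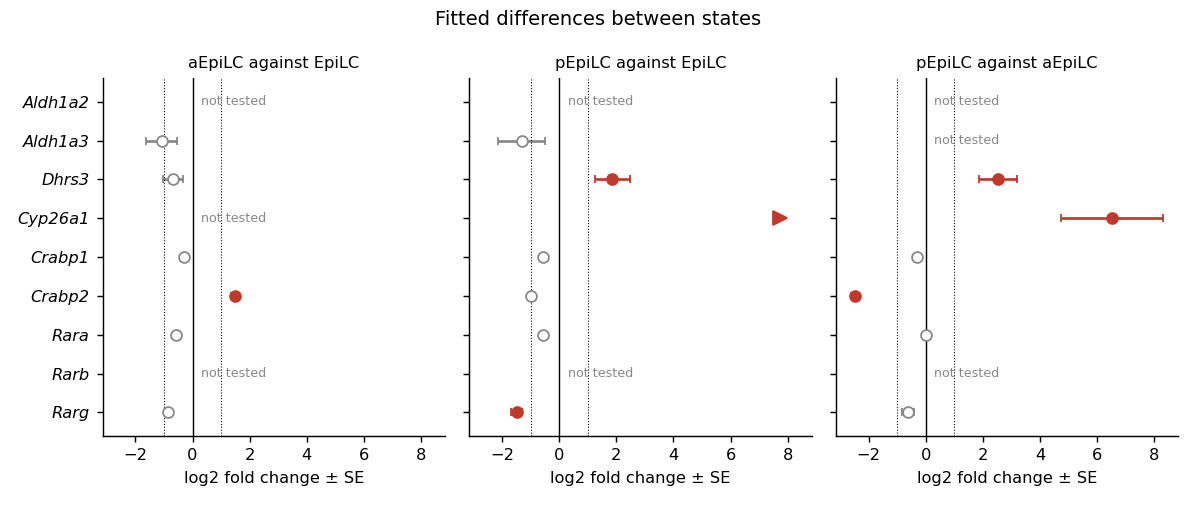
Log2 fold change with its SE (bars) on the horizontal axis for each gene in the 3 comparisons, from edgeR's quasi-likelihood fit. Filled red points are called genes, open points are genes tested and not called, dotted lines mark a log2 fold change of -1 and 1, and the triangle marks the lower bound for Cyp26a1 against EpiLCs, where all counts were 0. Crabp2 lies beyond the fold limit on the low side against aEpiLCs in pEpiLCs and on the high side in aEpiLCs against EpiLCs, and Cyp26a1 and Dhrs3 lie beyond it in both pEpiLC panels.

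Aldh1a2 and Aldh1a3 make retinoic acid from retinal, and Aldh1a2 is the main source of it in the early embryo. Aldh1a2 (ENSMUSG00000013584.5, chr9:71215789-71296243) had 8, 9 and 2 counts in the EpiLC libraries. It had 5, 9 and 5 counts in aEpiLCs and 34, 4 and 13 counts in pEpiLCs. Its libraries overlapped between all states and it did not pass the main filter in any comparison. Where alternatives let it be tested, it was not called. The 34 counts of pEpiLC replicate 1 were 1.62 CPM, and replicates 2 and 3 had 0.174 and 0.597 CPM.

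Aldh1a3 (ENSMUSG00000015134.15, chr7:66390890-66427517), which makes retinoic acid in the developing eye and nose among other sites, had 7, 24 and 14 counts in EpiLCs. It had 3, 8 and 10 counts in aEpiLCs and 0, 12 and 6 counts in pEpiLCs. The log2 fold change was -1.09 from EpiLCs to aEpiLCs (SE 0.54, adjusted p = 0.114) and -1.31 from EpiLCs to pEpiLCs (SE 0.82, adjusted p = 0.231), and in both cases the libraries overlapped. It was not tested between pEpiLCs and aEpiLCs.

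Dhrs3 reduces retinal back to retinol and is known as a gene that retinoic acid induces. Dhrs3 (ENSMUSG00000066026.14, chr4:144892827-144928209) had 1.07, 1.56 and 1.45 CPM in EpiLCs and 1.17, 0.810 and 0.552 CPM in aEpiLCs. In pEpiLCs it had 1.05, 6.87 and 6.66 CPM. Replicates 2 and 3 of the pEpiLCs were thus above every EpiLC and aEpiLC library, while replicate 1 lay below 1 aEpiLC library and all EpiLC libraries. The fitted log2 fold change in pEpiLCs was 2.52 against aEpiLCs (SE 0.67, adjusted p = 0.0424) and 1.86 against EpiLCs (SE 0.62, adjusted p = 0.0423). Without pEpiLC replicate 1 these became 3.00 (SE 0.27, adjusted p = 9.52e-06) and 2.34 (SE 0.21, adjusted p = 4.21e-07). The call against aEpiLCs was lost with any single aEpiLC replicate left out and without pEpiLC replicate 2 or 3 (log2 fold change 2.19 to 2.82, adjusted p 0.0971 to 0.153). The call against EpiLCs was lost with any single EpiLC replicate left out and without pEpiLC replicate 2 or 3 (1.53 to 1.96, adjusted p 0.107 to 0.134). Dhrs3 in aEpiLCs had a log2 fold change of -0.68 against EpiLCs (SE 0.34, adjusted p = 0.119), with overlapping libraries.

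Cyp26a1 oxidises retinoic acid to inactive products and is a classical target of retinoic acid. Cyp26a1 (ENSMUSG00000024987.6, chr19:37697798-37701536) had 0 counts in all 3 EpiLC libraries and 14, 2 and 5 counts in aEpiLCs. In pEpiLCs it had 1787, 68 and 45 counts, which are 85.2, 2.96 and 2.07 CPM. Each pEpiLC library was above each aEpiLC library, of which the highest had 0.657 CPM, and replicate 1 was 33.9 times the mean of replicates 2 and 3. In pEpiLCs the mean was 30.1 ± 47.7 CPM, and in aEpiLCs it was 0.326 ± 0.295 CPM (SD, n = 3 each).

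The log2 fold change of Cyp26a1 in pEpiLCs against aEpiLCs was 6.52 (SE 1.78, adjusted p = 0.0457). Without pEpiLC replicate 1 it was 2.95 (SE 0.52, adjusted p = 0.00176). Leaving out any aEpiLC replicate ended the call (log2 fold change 6.07 to 7.51, adjusted p 0.132 to 0.160), and over 12 alternatives the adjusted p ranged from 0.000320 to 0.160. Against EpiLCs, where the count was 0 throughout, Cyp26a1 was at least 213-fold higher in pEpiLCs, taking the highest CPM that 3 counts give in an EpiLC library as the floor (adjusted p = 0.0325, for a gene that entered the test through the pEpiLC libraries alone). Without pEpiLC replicate 1 it was at least 17.8-fold higher (adjusted p = 1.62e-06). The adjusted p was between 0.0787 and 0.0809 with any single EpiLC replicate left out. Cyp26a1 was not tested between aEpiLCs and EpiLCs under the main filter. Every aEpiLC library was above the EpiLC libraries, and the edgeR adjusted p was 0.00630 with no filter on low counts and 0.492 with all 9 libraries in one fit.

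The other breakdown enzymes stayed low. Cyp26b1 had between 3 and 8 counts in every library. Cyp26c1, the neighbour of Cyp26a1 on chromosome 19, had 0 counts in EpiLCs, 2, 0 and 3 in aEpiLCs and 8, 0 and 0 in pEpiLCs. Neither passed the filter in any comparison. The 8 counts of Cyp26c1 were in pEpiLC replicate 1, the library with the most Cyp26a1.

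Crabp1 and Crabp2 encode closely related proteins that bind retinoic acid, CRABP1 being linked to its turnover and CRABP2 to its delivery to receptors in the nucleus. Crabp2 (ENSMUSG00000004885.5, chr3:87948666-87953376) had 17.4, 17.0 and 17.4 CPM in EpiLCs. It had 38.9, 50.3 and 54.1 CPM in aEpiLCs and 8.25, 8.91 and 8.73 CPM in pEpiLCs. The 3 states did not overlap, and pEpiLC replicate 1 lay with the other pEpiLC libraries.

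Crabp2 rose from EpiLCs to aEpiLCs by a log2 fold change of 1.47 (SE 0.11, adjusted p = 2.75e-07). In pEpiLCs against aEpiLCs the log2 fold change was -2.47 (SE 0.14, adjusted p = 0.000108). Both calls stood in all 14 alternatives, with adjusted p from 6.14e-32 to 1.96e-05 for the first and from 1.37e-49 to 0.00215 for the second. In pEpiLCs against EpiLCs Crabp2 had a log2 fold change of -0.98 (SE 0.10, adjusted p = 0.000509), just short of the fold limit, which it passed in 1 of 14 alternatives, without pEpiLC replicate 2.

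Crabp1 (ENSMUSG00000032291.8, chr9:54764748-54773110) had 12.0, 12.8 and 11.1 CPM in EpiLCs, 9.90, 9.04 and 10.3 CPM in aEpiLCs and 8.34, 7.56 and 8.04 CPM in pEpiLCs. The 3 states did not overlap, but the steps were small. The log2 fold change was -0.29 from EpiLCs to aEpiLCs (SE 0.12, adjusted p = 0.0574) and -0.29 from aEpiLCs to pEpiLCs (SE 0.13, adjusted p = 0.172). Over the whole step to pEpiLCs it was -0.56 (SE 0.12, adjusted p = 0.00895), which passed on p and not on fold. Per kb of exon, the ratio of Crabp2 to Crabp1 was 0.878 ± 0.0723 in EpiLCs, 2.98 ± 0.523 in aEpiLCs and 0.658 ± 0.0575 in pEpiLCs (SD, n = 3). The aEpiLC ratios, from 2.38 to 3.37, all lay above those of the other states, and the EpiLC ratios, from 0.803 to 0.947, lay above the pEpiLC ratios, from 0.5997 to 0.715.

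The retinoic acid receptors are transcription factors that repress their targets without ligand and activate them with it. Rarg (ENSMUSG00000001288.15, chr15:102234938-102257517) had the most counts of them. It had 154, 145 and 158 CPM in EpiLCs, 72.9, 84.0 and 92.6 CPM in aEpiLCs and 35.2, 62.4 and 62.6 CPM in pEpiLCs. The states did not overlap, and pEpiLC replicate 1 was the lowest library.

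Rarg fell from EpiLCs to pEpiLCs, with a log2 fold change of -1.49 (SE 0.20, adjusted p = 0.00123), and was called in all 14 alternatives. Leaving out pEpiLC replicate 1 gave -1.26 (SE 0.06, adjusted p = 6.31e-10). From EpiLCs to aEpiLCs it was -0.87 (SE 0.08, adjusted p = 1.75e-06), which passed on p and stayed within the fold limit. Between pEpiLCs and aEpiLCs it was -0.64 (SE 0.21, adjusted p = 0.0832), or -0.41 if pEpiLC replicate 1 was left out (SE 0.09, adjusted p = 0.0100, in a range of 0.0100 to 0.237 over the alternatives).

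Rara (ENSMUSG00000037992.16, chr11:98927818-98974942) had 30.2, 35.1 and 35.2 CPM in EpiLCs, 19.8, 23.9 and 23.5 CPM in aEpiLCs and 24.5, 22.0 and 21.0 CPM in pEpiLCs. All EpiLC libraries were above all others, and the aEpiLC and pEpiLC libraries overlapped. The log2 fold change from EpiLCs was -0.58 in aEpiLCs (SE 0.10, adjusted p = 0.000327) and -0.55 in pEpiLCs (SE 0.10, adjusted p = 0.00452), both within the fold limit. Between pEpiLCs and aEpiLCs it was 0.0061 (SE 0.12, adjusted p = 0.978).

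Rarb (ENSMUSG00000017491.9, chr14:16430839-16819156), a receptor gene that retinoic acid induces in many cells, had 0, 0 and 2 counts in EpiLCs. It had 3, 10 and 3 counts in aEpiLCs and 2, 3 and 4 counts in pEpiLCs. It passed the filter in no comparison. Its exons overlap those of Top2b and Gm48162 on the opposite strand, and whether the libraries kept the strand is not stated, so these few counts cannot be assigned with certainty. No other of the 9 genes had exons overlapping another annotated gene. Rarb and Cyp26a1, the genes with a DR5 in the windows shown, thus differed in pEpiLCs: Cyp26a1 had 45 counts or more in each library and Rarb 4 or fewer.

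Levels were compared between genes per kb of exon, using merged GENCODE exons. In EpiLCs Rarg was first at 35.8 ± 1.54 CPM per kb, followed by Crabp1 at 14.9 ± 1.06, Crabp2 at 13.1 ± 0.191 and Rara at 7.67 ± 0.656 (SD, n = 3), and no neighbours among these overlapped. Dhrs3 followed at 0.464 ± 0.0867 CPM per kb, and the remaining genes were at 0.245 or less in every library. Aldh1a3 and Aldh1a2 overlapped each other in this order. In aEpiLCs Crabp2 was first at 36.1 ± 5.99 CPM per kb, followed by Rarg at 19.5 ± 2.32, Crabp1 at 12.2 ± 0.825 and Rara at 5.13 ± 0.527 (SD, n = 3), again without overlap. The other 5 genes were at 0.401 CPM per kb or less. Neighbours among them overlapped in this order (Dhrs3, Cyp26a1, Aldh1a2, Aldh1a3, Rarb), except that every Aldh1a2 library was just above every Aldh1a3 library.

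In pEpiLCs the mean put Cyp26a1 first, at 15.2 ± 24.1 CPM per kb (SD, n = 3), but this rested on 1 library. It had 43.0 CPM per kb in replicate 1, above every other gene of the set, and 1.49 and 1.04 in replicates 2 and 3, below Dhrs3 at 2.35 and 2.28. Rarg, at 12.5 ± 3.71 CPM per kb, was not separated from Crabp1, at 9.95 ± 0.490, because replicate 1 had 8.25 for Rarg and 10.4 for Crabp1. Crabp2 at 6.53 ± 0.260 and Rara at 5.15 ± 0.407 CPM per kb followed without overlap between them.

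The receptor makeup was dominated by Rarg. Of the summed level of Rara, Rarb and Rarg per kb, Rarg made up 82.3% ± 1.53 in EpiLCs, 79.0% ± 1.05 in aEpiLCs and 69.7% ± 8.82 in pEpiLCs (SD, n = 3). The pEpiLC libraries had 59.5%, 74.3% and 75.2% in replicates 1, 2 and 3, each below all EpiLC and aEpiLC libraries. Rarb made up 0.338% at most. The sum itself was 43.4 ± 1.56 CPM per kb in EpiLCs, 24.7 ± 2.79 in aEpiLCs and 17.7 ± 3.32 in pEpiLCs (SD, n = 3), and the states did not overlap.

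**Figure D3:**
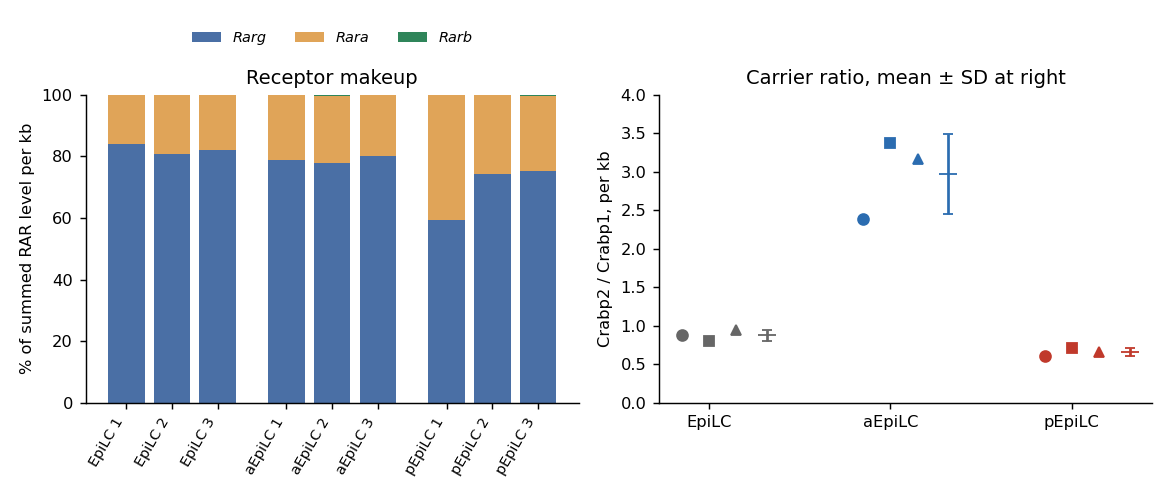
Left, share of each receptor gene in the summed level of Rara, Rarb and Rarg per kb of exon (vertical axis, %), with a bar for each library. Right, ratio of Crabp2 to Crabp1 per kb of exon in each library (points, with the shape giving the replicate number), with the mean and SD of 3 libraries beside them. Rarg takes 59.5% in pEpiLC replicate 1 and between 74.3% and 84.0% in the other libraries, and the carrier ratio is above 2 only in aEpiLCs.

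The genes with the most similar pattern were sought by Pearson's correlation of log2 CPM over the 9 libraries among 10727 genes with a mean of at least 5 CPM. These correlations describe 9 points that fall into 3 states, and no p is given. Aldh1a2, Aldh1a3 and Rarb, low in all states, were left out of this search. Cyp26a1 was most like Ppic (r = 0.993), Aplnr (0.992), which encodes the apelin receptor of early mesoderm, and Rxra (0.991), the partner receptor of the RARs. Aplnr had 84.5, 1.78 and 1.52 CPM in pEpiLCs and Rxra had 67.7, 35.3 and 32.4 CPM, so both were highest in pEpiLC replicate 1. Crabp2 was most like Stmn4 (0.988), Otx2 (0.985), a homeobox gene of the anterior epiblast and forebrain, and Btbd17 (0.983). Rarg was most like Gsta4 (0.996), Trim24 (0.994) and Sumo2 (0.994), and Rara like H2-K1 (0.993), Csnk2b (0.977) and Kars (0.977). Crabp1 was most like Cnih2 (0.971), Pcolce2 (0.970) and Pim1 (0.968), and Dhrs3 like Clcn2 (0.964), Scube3 (0.958) and Taok3 (0.951).

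Members of the set differed in how far they set pEpiLC replicate 1 apart. By log2 CPM with a prior count of 2, the 9-library filter left 7 of the 9 genes. Among these, 1 was at least 4-fold higher in replicate 1 than the mean of replicates 2 and 3 (Cyp26a1) and 2 at least 4-fold lower (Aldh1a3 and Dhrs3), where 1.07% of 15797 genes were higher and 0.741% lower. Aldh1a3 had 0 counts in replicate 1 and a mean of 0.399 CPM in the others, so its fold depends on the prior count and is no bound. Cyp26a1 and Dhrs3, the 2 genes called higher in pEpiLCs, thus differed in opposite directions between these libraries. Cyp26a1 had 85.2 CPM in replicate 1 and a mean of 2.51 CPM in the others, and Dhrs3 had 1.05 CPM and a mean of 6.77 CPM. Crabp1, Crabp2 and Rara lay close to the line of equal levels, with ratios of 1.07, 0.935 and 1.14.

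**Figure D4:**
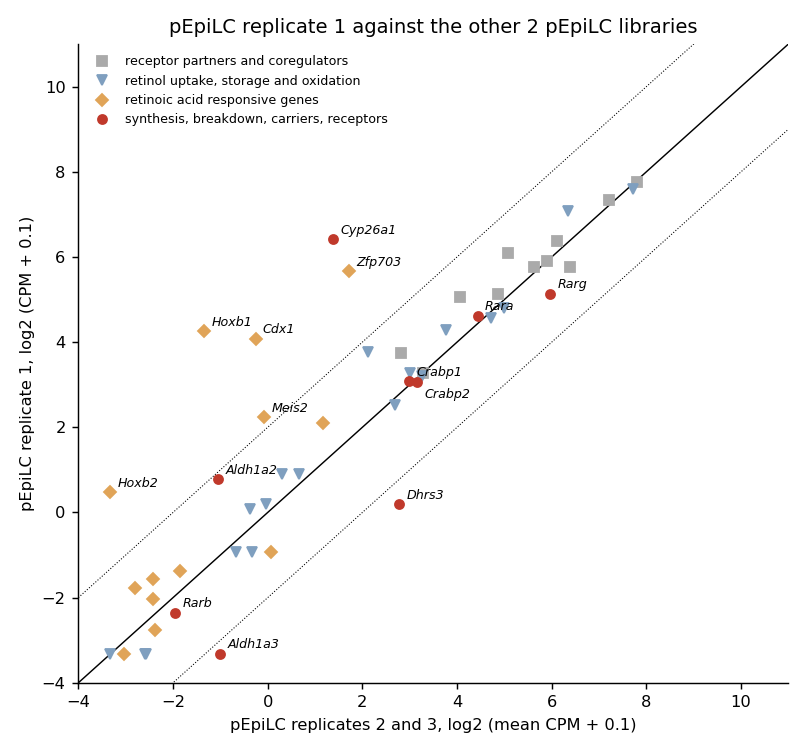
Level in pEpiLC replicate 1 (vertical axis) against the mean of pEpiLC replicates 2 and 3 (horizontal axis), both as log2 (CPM + 0.1), for the 9 genes (circles) and genes of the other pathway lists. The solid line marks equal levels and the dotted lines a 4-fold difference on this scale. Cyp26a1, Zfp703, Hoxb1 and Cdx1 lie far above the upper line, and Dhrs3 and Aldh1a3, the latter at 0 counts in replicate 1, lie below the lower one.

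Genes known to respond to retinoic acid formed a list of 15, of which 6 were tested between pEpiLCs and aEpiLCs. Of these, 3 were called higher (Cdx1, Tshz1 and Zfp703) and 1 lower (Tgm2), with a median log2 fold change of 1.65 beside 0.012 over all genes, of which 2.55% were called higher and 4.74% lower. In aEpiLCs against EpiLCs 4 were tested and 3 called higher (Meis2 and Zfp703 among them) and 0 lower, with a median of 1.13 beside 0.0023 over all genes (7.25% called higher and 5.24% lower). In pEpiLCs against EpiLCs 7 were tested, 4 were called higher (Cdx1, Meis2, Tshz1 and Zfp703) and 0 lower, with a median of 3.28 beside 0.017 over all genes (7.71% called higher and 8.13% lower). Genes at or near 0 in one state, such as Cdx1, passed the filter only through the state where they were high, so these counts and medians describe the genes that passed. Cdx1 is also known to respond to WNT signalling, and since every pEpiLC library and no other had CHIR99021, responses to both pathways cannot be told apart here. The counts without pEpiLC replicate 1 were 3 and 1 against aEpiLCs and 4 and 0 against EpiLCs, but the medians fell to 0.60 and 1.98. Against aEpiLCs, 0 were called without aEpiLC replicate 2 and 1 higher without aEpiLC replicate 1 or 3, with medians of 3.30 to 3.50 over the 8 genes then tested. Against EpiLCs, 1 was called with any single EpiLC replicate left out. Over all genes, calls with 1 replicate left out numbered 514 to 1148 against aEpiLCs and 1989 to 2565 against EpiLCs. The shares given above are those of the fits with every library.

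Cdx1, a homeobox gene of the posterior body axis, had 16.8, 0.739 and 0.735 CPM in pEpiLCs and at most 1 count in any other library (edgeR adjusted p = 0.0380 against aEpiLCs and 0.0161 against EpiLCs). Its pEpiLC mean was 43.2 times the highest level that 3 counts give in an aEpiLC library and 43.0 times that in an EpiLC library. Leaving out pEpiLC replicate 1 made these 5.24 times (adjusted p = 0.00141) and 5.21 times (adjusted p = 0.000200). Zfp703, a transcriptional repressor, had 50.5, 3.22 and 3.17 CPM in pEpiLCs and at most 1.15 CPM elsewhere. Its log2 fold change against aEpiLCs was 4.29 (SE 1.20, adjusted p = 0.0495), and 1.73 (SE 0.28, adjusted p = 0.00104) without pEpiLC replicate 1. Tshz1, a zinc finger gene, had 4.19, 2.26 and 2.02 CPM in pEpiLCs, with a log2 fold change of 2.61 (SE 0.45, adjusted p = 0.00982) against aEpiLCs. With 5, 11 and 14 counts in aEpiLCs, it passed the filter with the help of the pEpiLC libraries, where it was high.

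Meis2, a homeobox cofactor of HOX proteins, had 4.62, 0.826 and 0.873 CPM in pEpiLCs and 1.03, 1.48 and 1.38 CPM in aEpiLCs, and EpiLCs had at most 0.280 CPM. Its log2 fold change from EpiLCs to pEpiLCs was 3.28 (SE 0.84, adjusted p = 0.0164), and 1.98 (SE 0.52, adjusted p = 0.00500) without pEpiLC replicate 1. Meis2 had 6, 5 and 3 counts in EpiLCs, so it entered this test through the pEpiLC libraries, where it was high. Tgm2, a transglutaminase, was lower in pEpiLCs than in aEpiLCs, with a log2 fold change of -1.29 (SE 0.36, adjusted p = 0.0468). It had 9, 18 and 24 counts in pEpiLCs and 45, 40 and 39 in aEpiLCs, the state that carried it through the filter.

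Hoxb1, an early target of retinoic acid in the hindbrain, was not tested under the main filter and had most of its counts in pEpiLC replicate 1. Hoxb1 had 397 counts there and 2 and 11 in replicates 2 and 3, and no more than 4 in any EpiLC or aEpiLC library. Hoxb2 had 27 counts in replicate 1 and 0 in the other pEpiLC libraries. The library highest for Cyp26a1 was thus also the highest for Hoxb1, Hoxb2, Cdx1, Meis2 and Zfp703, and Gata6, Mixl1 and T moved with them. Nanog was lower in that library than in the other pEpiLC libraries. Of the 7 responsive genes that passed the filter over all 9 libraries, 4 were at least 4-fold higher in it than in the other pEpiLC libraries and 0 at least 4-fold lower, where 1.07% and 0.741% of all genes were. Tgm2 went the other way, with 0.429 CPM in replicate 1 against 0.782 and 1.10 CPM. These genes were singled out after their values were seen. Stra8, a germ cell gene that retinoic acid induces, had 1 count in the pEpiLC libraries together.

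The partners and coregulators of the receptors, a list of 11, were all tested. In pEpiLCs against aEpiLCs, 2 were called higher (Rxrg and Nrip1) and 0 lower, where 2.55% and 4.74% of all genes were, with a median log2 fold change of 0.19 (all genes, 0.012). From EpiLCs to aEpiLCs 0 were called, where 7.25% of all genes were called higher and 5.24% lower. Of the 11, 6 had an adjusted p below 0.05, where 46.6% of all genes did. From EpiLCs to pEpiLCs 3 were called higher (Rxra, Rxrg and Nrip1) and 0 lower, where 7.71% and 8.13% of all genes were, with a median of -0.045 (all genes, 0.017). Without pEpiLC replicate 1, 1 was called against aEpiLCs (Nrip1) and 2 against EpiLCs (Rxra and Nrip1), and the medians were 0.11 and 0.14. The shares over all genes above are those of the fits with every library.

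Rxra had 17.3, 16.5 and 16.0 CPM in EpiLCs, 26.7, 22.99 and 22.8 CPM in aEpiLCs and 67.7, 35.3 and 32.4 CPM in pEpiLCs. The states did not overlap, an order opposite to that of Rarg. The log2 fold change from EpiLCs to pEpiLCs was 1.47 (SE 0.27, adjusted p = 0.00446). Nrip1, a corepressor of nuclear receptors, had 33.3, 17.4 and 15.8 CPM in pEpiLCs, with a log2 fold change of 1.63 (SE 0.32, adjusted p = 0.0158) against aEpiLCs. Rxrg rose to 13.2, 7.87 and 6.02 CPM, with a log2 fold change of 1.24 (SE 0.29, adjusted p = 0.0272) against aEpiLCs, and 0.87 (adjusted p = 0.00480) without pEpiLC replicate 1.

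Genes of retinol uptake, storage and oxidation formed a list of 22. Of these, 19 were in the table, and Dhrs9, Bco1 and Aldh8a1 were not analysed here. For pEpiLCs against aEpiLCs 15 were tested, 2 were called higher (Stra6l among them) and 0 lower (all genes, 2.55% and 4.74%), with a median log2 fold change of 0.34 (all genes, 0.012). For aEpiLCs against EpiLCs 15 were tested, 2 were called higher (Aldh1a7 among them) and 2 lower (Stra6 and Stra6l), where 7.25% and 5.24% of all genes were, with a median of 0.038 (all genes, 0.0023). For pEpiLCs against EpiLCs 14 were tested, 2 were called higher (Stra6l among them) and 1 lower (Stra6), where 7.71% and 8.13% of all genes were, with a median of 0.28 (all genes, 0.017). A count of 1 lower of 14 tested is near the share over all genes. Without pEpiLC replicate 1 the calls against aEpiLCs were Stra6l higher and Stra6 lower, and against EpiLCs 2 were called higher (Aldh1a7 among them) and 1 lower (Stra6), with medians of 0.23 in both comparisons. Shares over all genes are again those of the fits with every library.

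Stra6, the membrane receptor for retinol carried by RBP4, had 2.57, 4.01 and 4.09 CPM in EpiLCs and 0.953, 0.782 and 0.552 CPM in pEpiLCs, a log2 fold change of -2.19 (SE 0.31, adjusted p = 0.00148). Stra6l, a related receptor, had 2.19, 2.40 and 2.24 CPM in EpiLCs, 0.798, 0.945 and 0.506 CPM in aEpiLCs and 13.6, 4.17 and 4.27 CPM in pEpiLCs. Stra6 and Stra6l both fell from EpiLCs to aEpiLCs, by -1.07 (adjusted p = 0.00508) and -1.59 (adjusted p = 0.000621) on the log2 scale. Rdh10, which makes retinal from retinol in the embryo, was tested and not called, with 6.37 to 10.1 CPM over all 9 libraries.

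**Figure D5:**
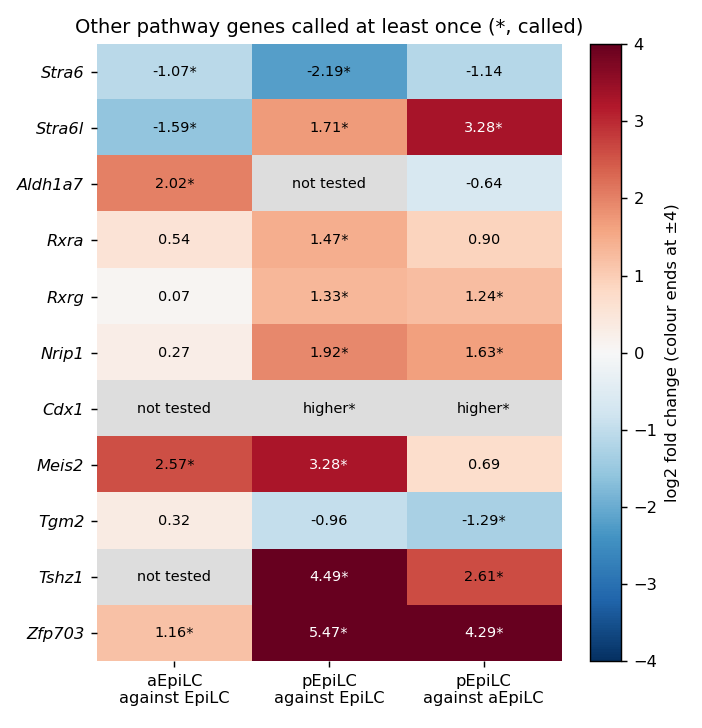
Log2 fold change of 11 genes of the other pathway lists, each called at least once, by comparison, from edgeR's quasi-likelihood fit. Colour gives the value and ends at -4 and 4, and a star marks a call. Cdx1, with at most 1 count per library in EpiLCs and aEpiLCs, is given without a fold. Stra6l is lower in aEpiLCs and higher in pEpiLCs than in EpiLCs, and the pEpiLC columns hold most of the calls.

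The calls of these lists differed in how they stood up to leaving out a library, a check added after the data were seen. From EpiLCs to aEpiLCs, Stra6l, Aldh1a7 and Meis2 were called whichever library was left out, though Aldh1a7 and Meis2, at 8 counts or fewer in EpiLCs, entered the test through the aEpiLC libraries where they were high. From EpiLCs to pEpiLCs the same held for Stra6, Rxra, Nrip1 and Tshz1, of which Tshz1, at 4 counts or fewer in EpiLCs, entered through the pEpiLC libraries alone. Between pEpiLCs and aEpiLCs each of the calls of Stra6l, Rxrg, Nrip1, Cdx1, Tgm2, Tshz1 and Zfp703 was lost without at least 1 aEpiLC replicate. Over all genes, 387 were called higher and 721 lower there with no library left out. With 1 replicate left out, all calls numbered 514 to 1148, so calls were lost beyond these lists as well. The calls of Stra6l, Cdx1, Meis2 and Zfp703 against EpiLCs were lost with any single EpiLC replicate left out, and that of Rxrg without EpiLC replicate 1 or 2 (adjusted p 0.0514 to 0.0802). Without pEpiLC replicate 1, Stra6l and Rxrg fell short of the fold limit against EpiLCs, at log2 fold changes of 0.91 (adjusted p = 0.00158) and 0.96 (adjusted p = 0.00156). In aEpiLCs against EpiLCs, Stra6 fell short of the fold limit without aEpiLC replicate 2, EpiLC replicate 2 or EpiLC replicate 3, and Zfp703 was lost without aEpiLC replicate 1 or 3 or EpiLC replicate 2 or 3 (adjusted p 0.0669 to 0.123). Over all alternatives, Zfp703 was called from EpiLCs to aEpiLCs in 7 of 13. Between pEpiLCs and aEpiLCs, Zfp703 was called in 8 of 13, Tgm2 in 7 of 13 and Rxrg in 9 of 14. Against aEpiLCs, where a call was lost on p, the adjusted p lay between 0.0530 (Stra6l, without aEpiLC replicate 3) and 0.167 (Zfp703, without aEpiLC replicate 2).

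Across the genome, the 29 windows with a DR5 belonged to 28 genes, of which 10 were in the count table. Few of them were expressed enough to be tested, 4, 3 and 4 in the comparisons of pEpiLCs with aEpiLCs, aEpiLCs with EpiLCs and pEpiLCs with EpiLCs. Those called were Cyp26a1 in both pEpiLC comparisons, Syndig1 from EpiLCs to pEpiLCs and Cfap45 from EpiLCs to aEpiLCs, all higher in the state named last or, for Cyp26a1, in pEpiLCs, and 0 were called lower. Of all genes, 2.55%, 7.25% and 7.71% were called higher in these comparisons, and the few DR5 genes tested allow no reading of their share. Syndig1 had 2.71, 2.83 and 2.33 CPM in EpiLCs and 7.44, 5.69 and 5.97 CPM in pEpiLCs (log2 fold change 1.303, SE 0.19, adjusted p = 0.00159). Cfap45 was low, with at most 1.35 CPM in any library and a log2 fold change of 1.07 (SE 0.42, adjusted p = 0.0489). Syndig1 and Cfap45 are named because they were called, after their values were seen.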

How the data were processed

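Mouse ESC-derived cells in 3 states were profiled by bulk RNA-seq, with 3 libraries each. The authors mapped paired-end reads to GRCm38 with STAR 2.7.9a and deposited RSEM 1.3.1 expected counts per symbol, without normalization. Read cleaning, annotation and strandedness are not given in the sources used here. RSEM divides ambiguous reads among genes, so 20.2% of values were not whole, and counts were rounded. Totals ranged from 20560564 to 23417917.

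Groups followed the labels. Each pair of states was fitted on its 6 libraries with edgeR 4.0.16 in R 4.3.3 (TMM, filterByExpr, quasi-likelihood test, Benjamini-Hochberg over all genes tested). CPM used TMM factors over all 9 libraries. Alternatives used limma 3.58.1 and DESeq2 1.42.0, among other settings. The procedure was tested on simulated data. GENCODE vM21 matched 22803 symbols (97.2%) to a single gene and gave positions and exon lengths. Promoter sequences came from RefSeq. Named genes were the 9, the called genes of the 4 other pathway lists, the 3 genes most like each of the 9 except Aldh1a2, Aldh1a3 and Rarb, and, chosen after their values were seen, Cyp26b1, Cyp26c1, Rdh10, Stra8, Syndig1, Cfap45, Hoxb1, Hoxb2 and the markers other than T. Counts of the lists include 3 genes that are not reported here. Members and lists were chosen with earlier results of these data known.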

Additional observations from a re-analysis of the deposited data

Results flagged for a closer look

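Crabp2 is listed because its RNA moved in opposite directions from the same starting cells. All 3 aEpiLC libraries lay above, and all 3 pEpiLC libraries below, the EpiLC range of 17.0 to 17.4 CPM. The direct test of the difference, edgeR's quasi-likelihood test between pEpiLCs and aEpiLCs, gave a log2 fold change of -2.467 (adjusted p = 0.000108). The rise in aEpiLCs was past the fold limit and the decrease in pEpiLCs, at -0.98 on the log2 scale, was not.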

How the results depend on the processing

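The calls of Crabp2 (pEpiLCs against aEpiLCs, aEpiLCs against EpiLCs) and Rarg (pEpiLCs against EpiLCs) stood in all 14 alternatives run for them. Between pEpiLCs and aEpiLCs, 2 of the 9 genes were called higher. The number was 1 with DESeq2 (no adjusted p for Cyp26a1), 1 with limma voom and sample quality weights (Cyp26a1 at 3.70, adjusted p = 0.0543), 1 with at least 10 counts in every library (Cyp26a1 not tested) and 0 to 2 when 1 replicate was left out. With the replicate block it was 1, Dhrs3 having a log2 fold change of 2.26 (adjusted p = 0.0867). The replicate numbers were not taken as pairs, since the correlations of same-numbered libraries were -0.060 to 0.172. Each aEpiLC library was most like the pEpiLC library of its own number, a hint from the data and not the design, and EpiLC libraries showed no such match throughout. The block changed no other call among the 9 genes. All called genes numbered 1108, against 514 (without aEpiLC replicate 2) to 1148 when 1 replicate was left out and 2369 without the fold limit. Rara, which was not called, changed sign to -0.0501 with voom and to -0.0021 with at least 10 counts in every library, and ranged from -0.0773 (without aEpiLC replicate 1) to 0.059 when 1 replicate was left out, being -0.0533 without pEpiLC replicate 1. From EpiLCs to aEpiLCs, 1 was called higher, and 2 without a filter, when Cyp26a1 entered. Without the fold limit, 2 were lower. All called genes numbered 1911, against 1259 with at least 10 counts in every library, where fewer genes were tested, and 7130 without the fold limit. From EpiLCs to pEpiLCs, 2 were called higher, against 1 with DESeq2, 1 with at least 10 counts in every library and 0 to 2 when 1 replicate was left out. The 1 called lower became 1 to 2 when 1 replicate was left out and 4 without the fold limit. All called genes numbered 2421, and 6759 without the fold limit. Aldh1a2 and Rarb did not pass the main filter, and where alternatives let them be tested they were not called (adjusted p 0.0630 or more for Aldh1a2 and 0.0741 or more for Rarb).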
